A study of Mus musculus with 3 samples.

Results

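Olfactory nerve layer (ONL) spots are the array positions that the deposited annotation places in the outermost layer of the mouse main olfactory bulb. They were chosen by that region name alone, and they number 238377 of the 2250425 spots under tissue. RNA with a poly(A) tail was captured on high-density spatial arrays from 3 coronal sections of C57BL/6J mice at 12 weeks of age. Sections 1, 2 and 3 held 78074, 81975 and 78328 ONL spots, and a spot is a small area that can hold part of a cell or of several cells. Each section gave 1 sum of counts for the ONL and 1 for each of the other 8 named regions. From the core outward these were rostral migratory system (RMS), ependymal cell zone (E), internal and external granule cell layers (GCL-I and GCL-E), internal plexiform layer (IPL), mitral layer (M/T), external plexiform layer (EPL) and glomerular layer (GL). The sources used here do not give which animal a section came from or how the regions were drawn. Nor do they say whether expression was used to draw them. The p-values measure how far region differences vary between these sections, with the level of each section taken out. That variation may be technical.

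The olfactory nerve layer is where the axons of olfactory sensory neurons enter the brain. Their cell bodies lie in the nasal epithelium, so RNA of these neurons found in the layer is RNA carried in axons. Bundles of these thin, unmyelinated axons are wrapped by olfactory ensheathing glia, and they end in the glomeruli of the GL, where they meet mitral, tufted and periglomerular cells. The pia, the innermost of the meninges, covers the outside of the layer. A set of 5 marker genes, chosen with earlier results of these data known, was set beside the region name. Omp (olfactory marker protein) and S100a5 (a calcium-binding protein) mark mature sensory neurons, Apod (apolipoprotein D) and Fabp7 (a brain fatty acid-binding protein) are made by ensheathing glia, and Ptgds (a prostaglandin D synthase secreted into cerebrospinal fluid) is abundant in the meninges.

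The promoter windows of 4 genes that recur below are shown because they stand for the sensory axon (S100a5, Gng13), ensheathing glia (Fabp7) and meningeal (Ptgds) genes of the layer. They are RefSeq sequences of GRCm38.p6, the assembly of build mm10, from 250 bases before to 50 bases after the annotated start, 5′ to 3′ on the strand of the gene. Capitals mark matches to the motifs described after them.
S100a5, chr3:90608272-90608571, plus strand: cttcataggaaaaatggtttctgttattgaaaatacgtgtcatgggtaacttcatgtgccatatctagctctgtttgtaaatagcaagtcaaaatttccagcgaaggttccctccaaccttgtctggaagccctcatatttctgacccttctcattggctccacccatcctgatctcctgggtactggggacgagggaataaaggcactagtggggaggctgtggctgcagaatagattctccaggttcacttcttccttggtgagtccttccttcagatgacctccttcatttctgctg
Gng13, chr17:25716922-25717221, plus strand: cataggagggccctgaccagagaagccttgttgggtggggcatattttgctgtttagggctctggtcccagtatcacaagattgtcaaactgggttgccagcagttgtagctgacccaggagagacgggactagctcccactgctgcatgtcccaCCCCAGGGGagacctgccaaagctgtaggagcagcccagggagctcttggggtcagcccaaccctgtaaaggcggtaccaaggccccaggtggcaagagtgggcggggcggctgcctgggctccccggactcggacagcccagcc
Fabp7, chr10:57784673-57784972, plus strand: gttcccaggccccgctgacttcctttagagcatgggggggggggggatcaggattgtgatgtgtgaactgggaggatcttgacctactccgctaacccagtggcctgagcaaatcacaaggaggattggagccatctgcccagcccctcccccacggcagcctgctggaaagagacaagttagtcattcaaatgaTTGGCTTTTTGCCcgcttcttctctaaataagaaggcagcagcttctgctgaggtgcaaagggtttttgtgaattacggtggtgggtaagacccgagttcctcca
Ptgds, chr2:25469700-25469999, minus strand: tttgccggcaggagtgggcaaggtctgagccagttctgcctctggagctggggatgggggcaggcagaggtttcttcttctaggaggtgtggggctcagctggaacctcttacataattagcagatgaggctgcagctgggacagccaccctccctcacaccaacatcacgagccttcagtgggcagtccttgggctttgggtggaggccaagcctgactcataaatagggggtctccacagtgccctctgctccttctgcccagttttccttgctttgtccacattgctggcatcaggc
The letters CCCNNGGG, the core bound by the Ebf (Olf-1) transcription factors of olfactory neurons, occurred as a pair of overlapping matches that began 95 and 94 bases before the Gng13 start shown. They did not occur in the S100a5 window, nor in the other RefSeq window of Gng13 (chr17:25717278-25717577). Of 32851 RefSeq mouse windows of this length, 13.7% held CCCNNGGG on either strand. TTGGCNNNNNGCC, a nuclear factor I motif, began 55 bases before the Fabp7 start, and 1.38% of the windows held it. Neither motif, nor a TATA box (TATAAA, 13.6% of windows) nor an antioxidant response element (TGACNNNGC, 12.4% of windows), occurred in the S100a5 or Ptgds window, and the searches covered both strands. These matches describe letters and not binding.

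The ONL sums held 15526, 70661 and 54916 counts in sections 1, 2 and 3, so that 1 count was worth 64.4, 14.2 and 18.2 CPM (the count divided by the total of the sum, times 1e6), the scale of all levels below. The ONL gave 19.9, 86.2 and 70.1 counts per 100 spots, against 46.7, 101 and 75.5 for the mean of the other regions. Its counts per 100 spots ranked 9th, 8th and 6th of the 9 regions, and its counts per spot with any count (2.36, 3.47 and 2.99) were the lowest of the 9 in each section. Fewer cells and less RNA per cell cannot be told apart in such sums. Section 1 stood apart: across the 1996 genes tested, ONL levels of section 1 had a Spearman correlation of 0.297 with section 2 and 0.363 with section 3, while sections 2 and 3 reached 0.758 with each other, where genes are not independent replicates. Lars2, a mitochondrial leucyl-tRNA synthetase gene chosen here after its values were seen, had 129 CPM in the ONL of section 1, against 21780 and 18501 CPM in the ONL of sections 2 and 3. Section was a block in the fits reported here, and calls of named genes that were lost without a section are given below.

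**Figure D1:**
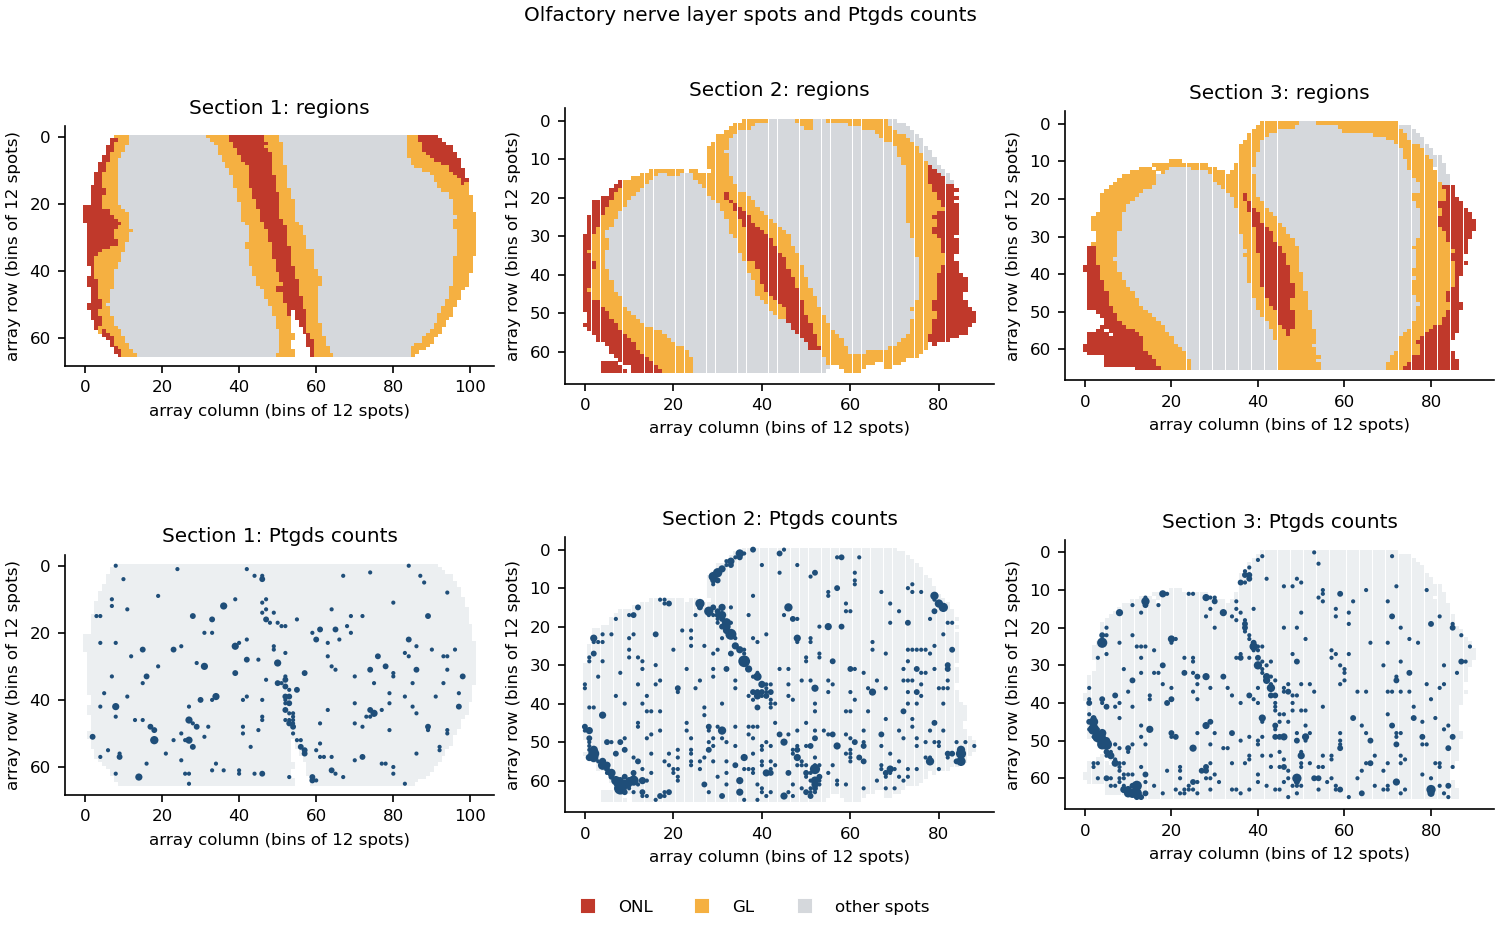
Position of ONL spots (red), GL spots (orange) and all other spots (grey) in each section, and of Ptgds counts (blue, larger dots for more counts), on the array in bins of 12 spots. The ONL formed 3 pieces in each section, 1 on each flank and 1 in the middle with GL on both sides.

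In each section the ONL fell into 3 separate pieces of at least 1000 spots: a left flank, a central strip with GL on both sides and a right flank. The central strip held 58.2%, 35.1% and 31.0% of the ONL spots of sections 1, 2 and 3. Ptgds stood at 6825, 2944 and 4368 CPM in the central strips of the 3 sections. The left flanks held 1381, 5472 and 6179 CPM of Ptgds, and the right flanks 727, 2463 and 1741 CPM. The right flank was the lowest piece for Ptgds in sections 2 and 3, while in section 1 both flanks were low, on 7 counts at the left and 1 at the right, too few to order them. Omp was found in each piece of sections 2 and 3, at 452, 581 and 176 CPM from left to right in section 2 and 708, 782 and 326 CPM in section 3. The left flank of section 1 held 0 counts of Omp and 0 of S100a5 among 5067 counts.

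All 5 markers were higher in the ONL than in each of the other 8 regions. They were chosen with earlier results of these data known, and expression may have been used to draw the regions. Their levels are therefore no independent check of the region name. Omp and S100a5 did not stay higher than in each region without section 2, without section 3 or with scaling by library sizes alone. Neither did they with DESeq2, without the filter on low counts or with spots near another region left out. S100a5 also fell out without section 1, and Apod without section 2. Fabp7 and Ptgds stayed in each of these settings, but without the section block no gene did. In the comparison of the ONL with the unweighted mean of the other regions, 133 of 1996 tested genes (6.66%) passed an adjusted p of 0.05 in edgeR's quasi-likelihood test with Benjamini-Hochberg adjustment over all tested genes. Of these, 119 (5.96%) were higher in the ONL and 14 (0.701%) were lower, and the median log2 fold change of all tested genes was 0.08. Leaving out section 1, 2 or 3 gave 188, 53 or 87 genes. Scaling by library sizes alone lowered the median and moved the split to 83 higher and 61 lower, so counts of lower genes depend on the scaling. The fitted log2 fold change averages the log levels of regions, some of which had 0 counts, so CPM means are given beside it. The fit also scales the sums, which CPM does not, and signs can differ. Actb averaged 2087 CPM in the ONL and 2297 CPM elsewhere, with a log2 fold change of 0.10.

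**Figure D2:**
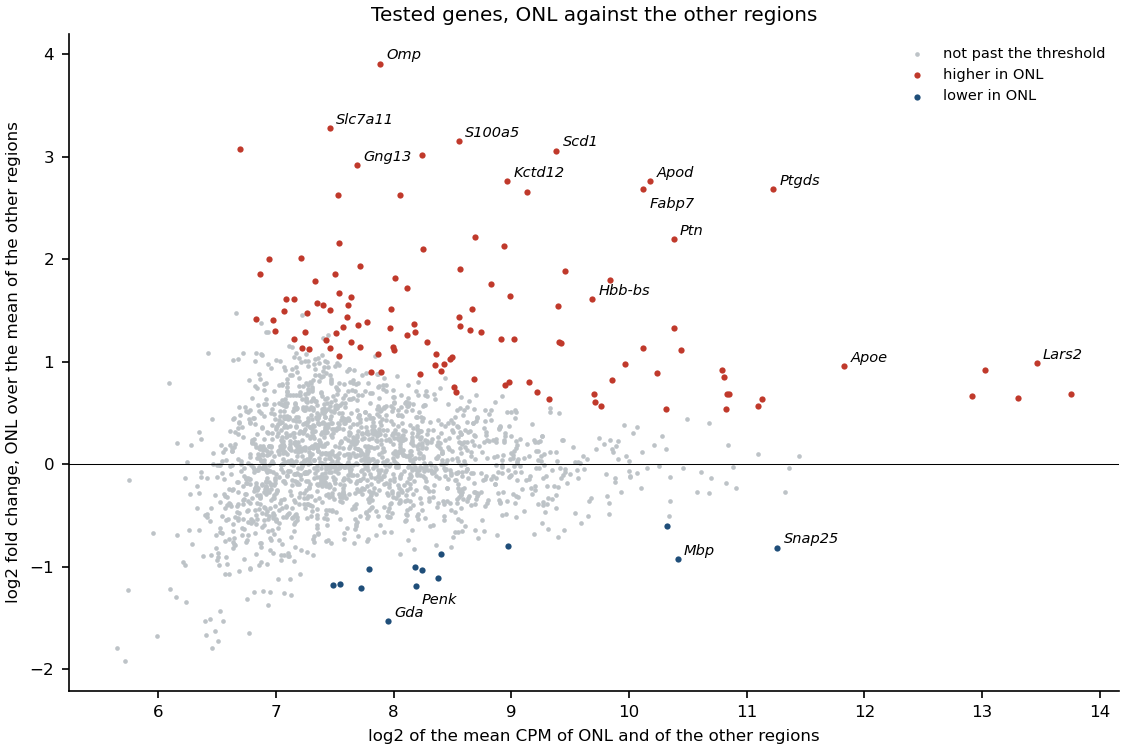
Log2 fold change of each tested gene, ONL over the mean of the other regions (vertical), against log2 of its mean CPM (horizontal). Of the 1996 genes, 119 were higher in the ONL (red), led by Omp, and 14 were lower (blue).

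Genes of olfactory sensory neurons were among the largest increases. All 3 tested members of the sensory axon list were higher in the ONL, with a median log2 fold change of 3.15, against 0.08 over all tested genes. Over all tested genes 5.96% were higher. Omp and S100a5 are also markers, and a gene can pass the filter on low counts through its ONL sums alone. The count of 3 of 3 is therefore no independent support. Omp (chr7:98143359-98145502) had 258, 410.4 and 601 CPM in the ONL of sections 1, 2 and 3, against 35.9, 59.0 and 57.5 CPM in the mean of the other regions. The ONL was thus above the other regions in each section, without overlap. Its log2 fold change was 3.91 (SE 0.41, adjusted p = 9.45e-20). S100a5 (chr3:90608523-90611780) had 773, 495 and 692 CPM in the ONL, against 82.5, 89.2 and 123 CPM elsewhere, a log2 fold change of 3.15 (SE 0.30, adjusted p = 1.85e-23). Gng13, a G protein gamma subunit of sensory cells, averaged 339.6 ± 176 CPM in the ONL and 72.2 ± 11.5 CPM elsewhere (SD, n = 3 each), with a log2 fold change of 2.92 (SE 0.45, adjusted p = 9.74e-09). Gng13 was higher in the ONL than in 7 of the 8 regions, the exception being the GL, where its adjusted p was 0.701.

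The other 15 members of the sensory axon list fell below the filter on low counts. In a fit without that filter, Stoml3 (a stomatin-like protein of olfactory cilia), Gnal (the G protein alpha subunit of odour transduction) and Slc17a6 (a vesicular glutamate transporter) were also higher in the ONL. Over all genes below the filter, 129 of 17625 (0.732%) were called higher in that fit and 1 (0.00567%) was called lower. Stoml3 had 2, 17 and 12 counts in the ONL of the 3 sections, a mean of 196 ± 59.2 CPM, against 23.3 ± 15.01 CPM elsewhere (SD, n = 3 each). Gnal averaged 189.9 ± 56.6 CPM in the ONL and 73.8 ± 23.4 CPM elsewhere. The Slc17a6 call rests on 0, 4 and 4 ONL counts, a mean of 43.1 ± 38.2 CPM, and the GL held 39.4 CPM. Counts of olfactory receptor genes, the odorant receptors of these neurons, were rare: 15 of 141103 ONL counts in 14 genes, against 29 of 1349679 counts in the other regions. That is 106 CPM in the ONL (exact Poisson 95% interval 59.5 to 175, covering counting error only) and 21.5 CPM elsewhere (14.4 to 30.9). The ONL counts were 1, 8 and 6 in sections 1, 2 and 3, and no receptor gene had more than 2.

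Genes linked to young neurons and growing axons made up another list. Of 7 tested members of that list, 1 was higher in the ONL and 0 were lower, with a median log2 fold change of 0.02, where 5.96% of all tested genes were higher. Marcks, an actin-regulating substrate of protein kinase C, averaged 866 ± 471 CPM in the ONL and 506 ± 244 CPM elsewhere (log2 fold change 1.18, SE 0.19, adjusted p = 3.76e-08). Gap43, a growth-cone protein, averaged 112 CPM in the ONL and 166 CPM elsewhere and did not pass (adjusted p = 0.91). Of 3 tested genes of axon guidance and adhesion, Ncam1, a neural cell adhesion molecule of olfactory axons and glia, was the 1 that passed. Its ONL levels of 193, 849 and 783 CPM, against 318, 428 and 329 CPM elsewhere, were higher in sections 2 and 3 and lower in section 1 (log2 fold change 1.23, SE 0.21, adjusted p = 4.83e-07). The section 1 level of Ncam1 rests on 3 counts.

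**Figure D3:**
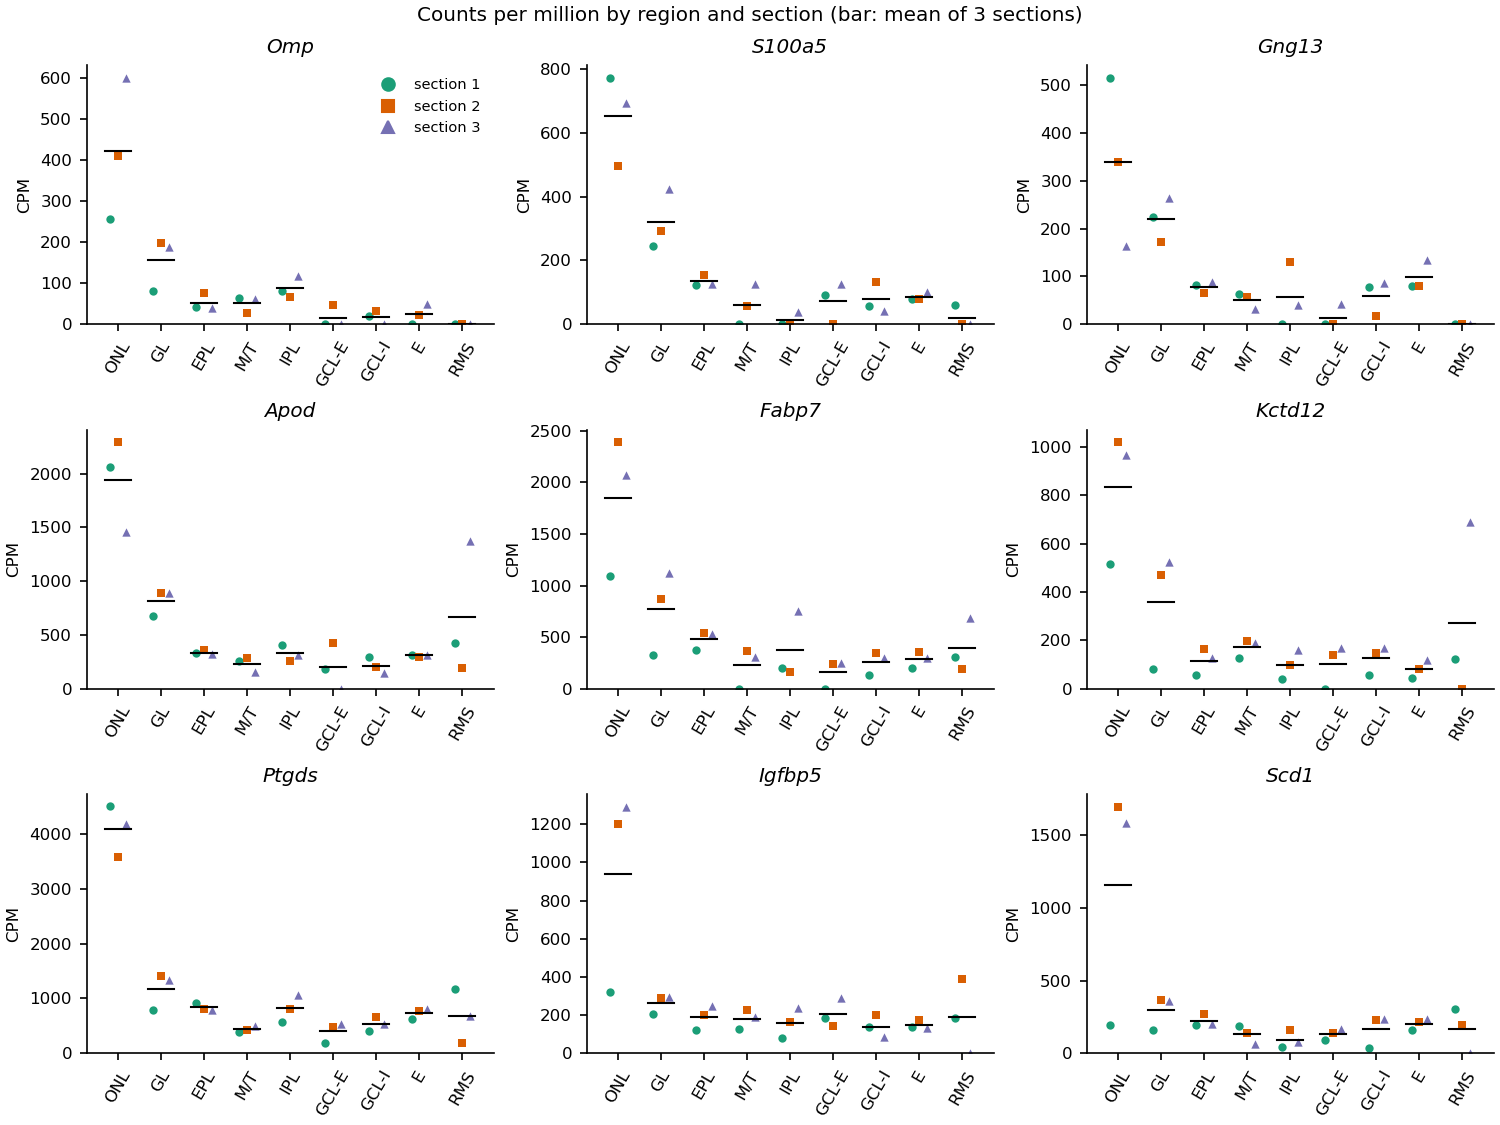
CPM of 9 genes in each region and section (points) with the mean over 3 sections (bars), ONL at the left. The ONL mean is the highest of the 9 regions for each gene, and the GL mean comes next for Omp, S100a5, Gng13, Apod, Fabp7, Kctd12, Ptgds, Igfbp5 and Scd1.

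Genes of olfactory ensheathing glia were likewise high. Each of the 5 tested members of that list was higher in the ONL, with a median log2 fold change of 1.94, where 5.96% of all tested genes were higher. Apod and Fabp7 are also markers, and here too a gene can pass the filter on low counts through its ONL sums alone. The count of 5 of 5 is therefore no independent support. Apod (chr16:31296192-31314808) had 2061, 2293 and 1457 CPM in the ONL of sections 1, 2 and 3, against 361, 363 and 441 CPM elsewhere. Fabp7 (chr10:57784881-57788450) had 1095, 2392 and 2076 CPM in the ONL, against 194, 384 and 531 CPM elsewhere. Both genes stood above the other regions in each section, with a log2 fold change of 2.76 (SE 0.17, adjusted p = 2.51e-56) for Apod and of 2.68 (SE 0.17, adjusted p = 2.26e-54) for Fabp7.

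S100b (a calcium-binding protein of glia) averaged 334 ± 80.9 CPM in the ONL and 178 ± 25.9 CPM elsewhere (adjusted p = 0.00214), and the call was lost without section 3 (adjusted p = 0.234). Npy (neuropeptide Y, made by ensheathing glia and some interneurons) averaged 307 ± 129 CPM in the ONL and 114 ± 93.6 CPM elsewhere (adjusted p = 8.68e-06), and without section 2 its adjusted p was 0.0625. Sox10, a transcription factor of neural crest-derived glia, was below the filter, and the fit without one called it higher, from 1, 5 and 6 ONL counts. It was 1 of 7 list members below the filter, where 0.732% of all genes below it were called higher. Ngfr and Fbln5 of the list had 0 of 141103 ONL counts, which allows a level of up to 21.3 CPM. Of 4 tested members of the oligodendrocyte list 0 were higher and Mbp was lower, where 5.96% of all tested genes were higher and 0.701% lower. Mbp, the myelin basic protein, averaged 883 ± 699 CPM in the ONL and 1844 ± 630.3 CPM elsewhere (log2 fold change -0.92, SE 0.20, adjusted p = 0.000111), and without section 2 the call was lost (adjusted p = 0.379).

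Ptgds (chr2:25466709-25470046) had 4509, 3580 and 4188 CPM in the ONL of sections 1, 2 and 3, against 631, 694 and 782 CPM in the mean of the other regions. The levels did not overlap, and the log2 fold change was 2.68 (SE 0.14, adjusted p = 3.63e-82). Of the list of meningeal fibroblast and matrix genes, 2 of 15 were tested and both were higher, Ptgds and Sparc, a matrix protein of many cell types. Over all tested genes 5.96% were higher. Sparc averaged 708 ± 168 CPM in the ONL and 426 ± 122 CPM elsewhere (log2 fold change 0.80, SE 0.21, adjusted p = 0.00387), and without section 2 its adjusted p was 0.329. Among the 13 members below the filter, the fit without one called 7 higher: Dcn and Ogn (small leucine-rich matrix proteins), Bgn (biglycan), Col1a1 (a collagen chain), Mgp (matrix Gla protein), Serping1 (a complement inhibitor) and Slc6a13 (a GABA transporter of the meninges). Dcn, decorin, had 0, 26 and 19 counts in the ONL of the 3 sections, a mean of 238 ± 206 CPM, against 17.0 ± 10.1 CPM elsewhere. Slc6a13 rests on 0, 2 and 5 ONL counts, a mean of 39.8 CPM, and the GL held 37.1 CPM. Over all genes below the filter 0.732% were called higher in the fit without a filter. The summed level of the 15 genes was 5861, 5463 and 5955 CPM in the ONL, against 1293, 1186 and 1319 CPM elsewhere. Ptgds alone gave 4509, 3580 and 4188 CPM of these ONL sums and 631, 694 and 782 CPM of those elsewhere. The ONL sums thus mostly restate Ptgds, a marker.

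Of the insulin-like growth factor system, Igfbp5, a secreted binding protein for its growth factors, had 322, 1203 and 1293 CPM in the ONL, against 147, 223 and 185 CPM elsewhere (log2 fold change 2.65, SE 0.20, adjusted p = 1.5e-37). It was the 1 of 3 tested members that passed, where 6.66% of all tested genes passed. In the fit without a filter Igf2 (the growth factor IGF-II, made by the meninges and choroid plexus), Igf1 and Igfbp4 were called higher too. They were 3 of 7 list members below the filter, where 0.732% of all genes below it were called higher. Igf2 had 3, 18 and 14 ONL counts and averaged 234 ± 35.6 CPM in the ONL, against 25.3 ± 15.8 CPM elsewhere. Igf1 had 0, 9 and 11 ONL counts and averaged 109 ± 101 CPM in the ONL, against 102 CPM in the GL and 37.4 CPM over all other regions.

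Of 4 tested blood genes 3 were higher in the ONL, where 5.96% of all tested genes were higher, with a median log2 fold change of 1.49. The haemoglobin chain gene Hbb-bs had 1546, 976 and 1056 CPM in the ONL, against 349, 458 and 566 CPM elsewhere (log2 fold change 1.61, SE 0.19, adjusted p = 1.79e-14). Hba-a2 and Hbb-bt also passed, while Hba-a1 averaged 236 CPM in the ONL and 157 CPM elsewhere and did not (adjusted p = 0.114); these genes have near-identical copies among which counts can be split. Summed over the list, blood genes came to 3736, 2095 and 2294 CPM in the ONL, against 822, 1200 and 1238 CPM elsewhere, with Alas2 and Slc4a1 at 0 counts in the ONL. Of 2 tested endothelial and mural genes, Vtn (vitronectin, made by pericytes in brain) was higher, at 451, 368 and 437 CPM in the ONL against 112, 75.3 and 153 CPM elsewhere (log2 fold change 2.63, SE 0.34, adjusted p = 5.35e-13). Bsg (basigin), the other, averaged 743 ± 313 CPM in the ONL and 541 ± 219 CPM elsewhere and did not pass (adjusted p = 0.107), though it did without section 1 (adjusted p = 0.0279). Cldn5 and Flt1, of endothelium, were called higher in the fit without a filter. They were 2 of 13 list members below the filter, where 0.732% of all genes below it were called higher. Tjp1, a scaffold of tight junctions, averaged 287 ± 193 CPM in the ONL and 82.8 ± 43.4 CPM elsewhere (log2 fold change 2.62, SE 0.40, adjusted p = 7.01e-09), on 1 count in section 1. How far meninges, blood and vessels account for other genes of the layer was not tested.

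Lipid synthesis genes were higher in part. Of 8 tested members of the fatty acid and sterol list 4 were higher and 0 lower, with a median log2 fold change of 0.76. Over all tested genes 5.96% were higher and 0.701% lower. Scd1, a stearoyl-CoA desaturase that makes monounsaturated fatty acids, had 193, 1698 and 1584 CPM in the ONL, against 148, 215 and 167 CPM elsewhere. It exceeded their mean in each section, but by little in section 1, where it rests on 3 counts and ranked 2nd of the 9 regions (log2 fold change 3.06, SE 0.19, adjusted p = 4.91e-54). Scd2, its relative, averaged 2604 ± 313 CPM in the ONL and 1881 ± 196 CPM elsewhere, with a log2 fold change of 0.64 (SE 0.14, adjusted p = 0.000297). Fasn, the fatty acid synthase, had 258, 410.4 and 455 CPM in the ONL, against 462, 141 and 144 CPM elsewhere, so that it was lower in section 1 and higher in sections 2 and 3 (adjusted p = 0.00016). Elovl5, an elongase of polyunsaturated fatty acids, also passed. Without section 2 the calls of Scd2, Fasn and Elovl5 were lost, with adjusted p of 0.329, 0.279 and 0.193 in that order.

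Among glutathione and antioxidant genes 3 of 8 tested were higher and 0 lower, with a median log2 fold change of 0.27. Over all tested genes 5.96% were higher and 0.701% lower. Slc7a11, the cystine-glutamate exchanger that supplies cystine for glutathione, had 64.4, 425 and 346 CPM in the ONL, against 28.6, 47.2 and 145 CPM elsewhere (log2 fold change 3.28, SE 0.43, adjusted p = 3.63e-12). Its ONL level in section 1 rests on 1 count. Prdx1, a peroxiredoxin that reduces peroxides, had 773, 467 and 492 CPM in the ONL, against 275, 236 and 168 CPM elsewhere (log2 fold change 1.31, SE 0.24, adjusted p = 2.89e-06). Prdx6, another peroxiredoxin, averaged 419 ± 86.9 CPM in the ONL and 239.6 ± 40.3 CPM elsewhere (adjusted p = 0.00162; 0.239 without section 2). The 2 tested metallothionein genes did not pass.

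Genes of astrocytes and lipid carriers were higher in part. Of 11 tested members of the astrocyte list 6 were higher and 0 lower, with a median log2 fold change of 0.56. Gja1, a gap junction protein, had a log2 fold change of 1.38 (adjusted p = 0.000359). Glul (glutamine synthetase), Aldoc, Sparcl1 and S100b passed with smaller or less stable differences. Aldoc and Sparcl1 lost their calls without section 2 or without section 3, and Glul without section 2 (adjusted p = 0.26). Summed over its 13 genes, the astrocyte list came to 10434, 13473 and 12874 CPM in the ONL, against 8850, 12657 and 12262 CPM elsewhere. Apoe, the main lipoprotein of brain, averaged 4533 ± 1382 CPM in the ONL and 2744 ± 748 CPM elsewhere (log2 fold change 0.96, SE 0.13, adjusted p = 1.05e-10), while Clu, of the same list, averaged 291 CPM in the ONL and 456 CPM elsewhere and did not pass (adjusted p = 0.935). The 1 tested gene of the microglia list, Cst3, did not pass.

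**Figure D4:**
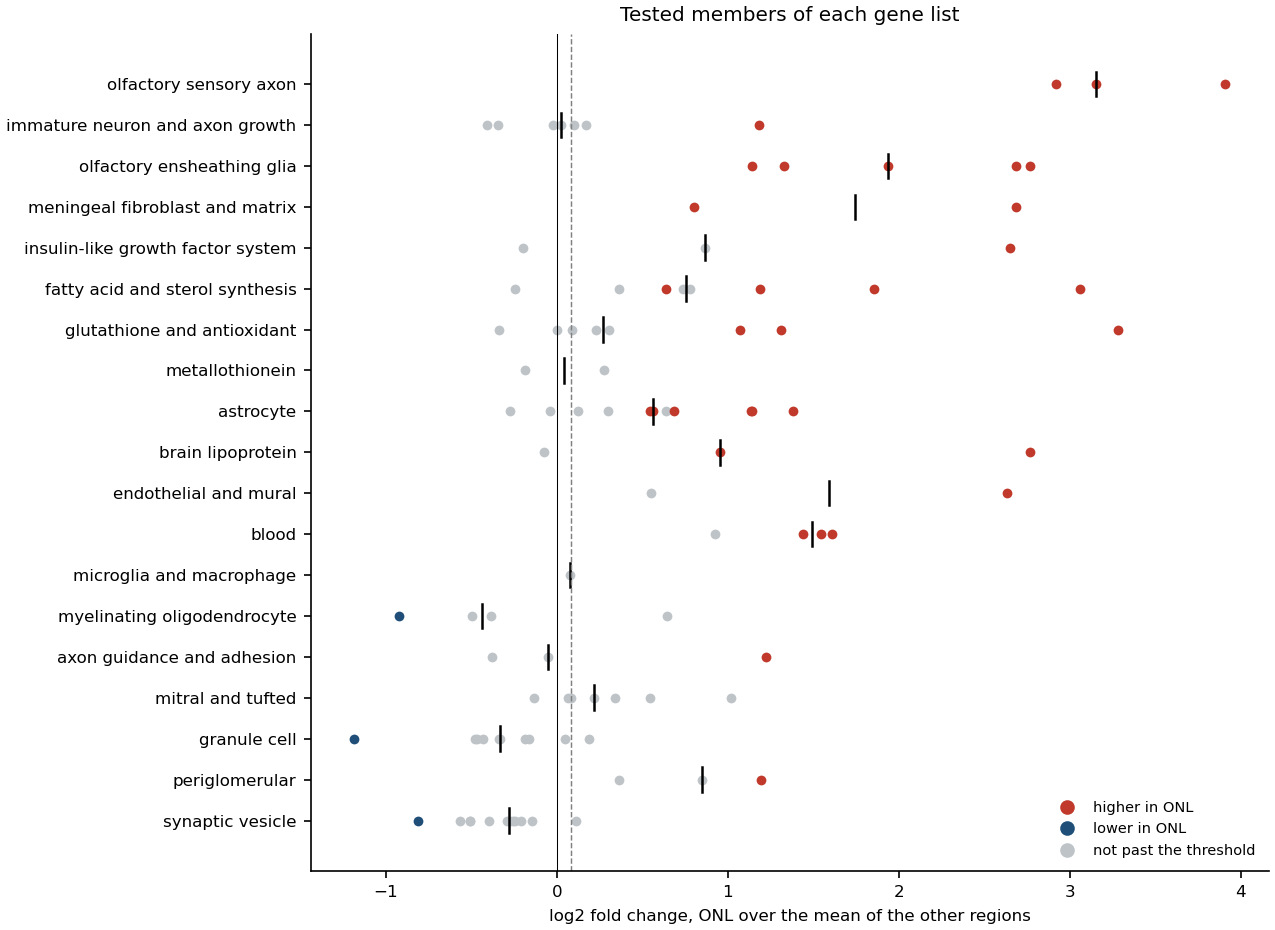
Log2 fold change, ONL over the mean of the other regions, of each tested member (dots) of 19 gene lists with the list median (black bar) and the median of all tested genes (dashed line, 0.08). Sensory axon (3 of 3), ensheathing glia (5 of 5) and blood (3 of 4) members were mostly higher (red), and Mbp, Penk and Snap25 were lower (blue). Over all tested genes 5.96% were higher, and a member can pass the filter on low counts through its ONL sums alone.

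Few genes of bulb neurons were tested, and the share called over all tested genes was 5.96% higher and 0.701% lower. Of 10 tested granule cell genes 0 were higher and Penk (proenkephalin) was lower, at 258, 99.1 and 91.0 CPM in the ONL against 689, 289 and 326 CPM elsewhere (log2 fold change -1.18, SE 0.36, adjusted p = 0.0184). Of 12 tested synaptic vesicle genes 0 were higher and Snap25, a membrane fusion protein of nerve endings, was lower. It had 2061, 1245 and 1457 CPM in the ONL, against 4039, 2843 and 3068 CPM elsewhere (log2 fold change -0.81, SE 0.17, adjusted p = 5.9e-05). Gda, a guanine deaminase of neurons, had the largest fitted decrease among the genes that passed, with 126 ± 68.3 CPM in the ONL and 369 ± 52.1 CPM elsewhere (log2 fold change -1.53, SE 0.37, adjusted p = 0.000923). The others named by the same rule included Camkv, Cycs, Dync1i1, Hivep2 and Rragd, with log2 fold changes between -1.21 and -1.03. Among these lower genes, Camkv, Penk and Cycs lost theirs whichever section was left out, and Snap25 and Gda lost theirs without section 2 (adjusted p = 0.148 and 0.437). Dync1i1 lost its call without section 1 (adjusted p = 0.0985) or 2 (0.645), Hivep2 without section 2 (0.307) or 3 (0.128) and Rragd without section 1 (0.0521) or 3 (0.609).

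Against the mean of the other regions, 0 of 7 tested mitral and tufted genes had an adjusted or an unadjusted p under 0.05. Over all tested genes 5.96% were called higher and 0.701% lower. That mean takes in unlike regions: the summed list averaged 1808 CPM in the ONL, 2796 in the GL, 3642 in the EPL, 4495 in M/T and 988 in E. Against the GL 0 of the 7 had a positive log2 fold change, 4 had an unadjusted p under 0.05 and Doc2g was called lower. Over all tested genes 0.301% were lower than in the GL. Th, tyrosine hydroxylase of dopaminergic periglomerular cells, passed as higher in the ONL than in the mean of the other regions (adjusted p = 0.0376), but averaged 267 ± 215 CPM in the ONL and 312 ± 225 CPM in the GL. Its call was lost without section 2 (adjusted p = 0.2) or section 3 (adjusted p = 0.193).

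A stricter comparison asked for genes higher in the ONL than in each of the 8 regions at an adjusted p of 0.05. Taken singly, 38 genes (1.9%) were higher and 33 (1.65%) lower than in EPL, 78 (3.91%) higher and 34 (1.7%) lower than in M/T, and 62 (3.11%) higher and 15 (0.752%) lower than in IPL. Against GCL-E 77 (3.86%) were higher and 30 (1.5%) lower, and against GCL-I 133 (6.66%) were higher and 80 (4.01%) lower. Against E 109 (5.46%) were higher and 60 (3.01%) lower, and against RMS 52 (2.61%) were higher and 3 (0.15%) lower. Higher in the ONL than in each were 14 of 1996 (0.701%): Ptgds, Ptn, Fabp7, Apod, Kif5b, Scd1, Zbtb20, Igfbp5, Sash1, Kctd12, Ncam1, Mcf2l, S100a5 and Omp. No gene was lower than in each region, against 1847 genes that were lower than in none. All 14 had their highest level in the ONL in sections 2 and 3, and 8 of them in section 1 as well. The region next in level was the GL for 13 of the 14, the exception being Mcf2l, where it was the RMS. The count was 14, 3 or 8 without section 1, 2 or 3, and 26 without the RMS, whose section 3 sum had 1456 counts.

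Several of the 14 belong to none of the lists above. Ptn, pleiotrophin, a secreted growth factor that promotes neurite outgrowth, had 773, 2901 and 2513 CPM in the ONL, against 270.5, 763 and 777 CPM elsewhere (log2 fold change 2.19, SE 0.16, adjusted p = 9.53e-39). Kctd12, an auxiliary subunit of GABA-B receptors, had 515, 1019 and 965 CPM in the ONL, against 66.3, 163 and 267 CPM elsewhere (log2 fold change 2.76, SE 0.22, adjusted p = 1.34e-32). Both were above the other regions in each section. Kif5b, a kinesin heavy chain that moves cargo along microtubules, averaged 1348 ± 912 CPM in the ONL and 485 ± 293 CPM elsewhere (log2 fold change 1.80, SE 0.17, adjusted p = 1.28e-23). Zbtb20, a zinc finger transcription factor, averaged 1049.6 ± 857 CPM in the ONL and 355 ± 296 CPM elsewhere (log2 fold change 1.88, SE 0.19, adjusted p = 5.84e-22), on 1 count in section 1. Sash1, a scaffold protein, had 193, 1132 and 929 CPM in the ONL, against 187, 247 and 250.5 CPM elsewhere, so that section 1 showed little difference (adjusted p = 3.45e-21). Mcf2l, a guanine nucleotide exchange factor, had 258, 693 and 929 CPM in the ONL, against 202, 170 and 237 CPM elsewhere (adjusted p = 9.45e-20).

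The GL borders the ONL and receives its axons, and fewer genes separated these neighbours. Of 1996 genes 38 (1.9%) passed, 32 (1.6%) higher in the ONL and 6 (0.301%) lower. The largest increases named by rule were those of Scd1, Igfbp5, Ptgds, Vtn, Slc7a11 and Omp. Scd1 had 193, 1698 and 1584 CPM in the ONL, against 163, 364 and 363 CPM in the GL (log2 fold change 2.14, SE 0.21, adjusted p = 5.81e-21). Igfbp5 averaged 939 ± 536 CPM in the ONL and 263 ± 51.6 CPM in the GL, with a log2 fold change of 2.03 (SE 0.22, adjusted p = 6.22e-17). Ptgds had a log2 fold change of 1.72 (SE 0.16, adjusted p = 2.53e-22) against the GL, where it stood at 795, 1403 and 1331 CPM.

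Of the 3 tested sensory axon genes, Omp and S100a5 passed against the GL, which holds the endings of the same axons. Omp averaged 423 ± 172 CPM in the ONL and 156 ± 65.0 CPM in the GL (log2 fold change 1.44, SE 0.36, adjusted p = 0.00601), and S100a5 653 ± 143 CPM in the ONL and 319.8 ± 92.8 CPM in the GL (log2 fold change 0.92, SE 0.27, adjusted p = 0.0326). Each was higher in the ONL in every section, but the Omp call was lost without section 2 (adjusted p = 0.341) or section 3 (adjusted p = 0.658). Those of Vtn (adjusted p = 0.000886; 0.199 and 0.335 without section 2 and 3) and Slc7a11 (adjusted p = 0.0153; 0.903 without section 2) were also lost. Ensheathing glia genes passed as well, with a log2 fold change against the GL of 1.30 for Fabp7 (SE 0.18, adjusted p = 4.33e-10) and 1.22 for Apod (SE 0.18, adjusted p = 6.34e-09).

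The 6 genes lower in the ONL than in the GL were Inpp5f, Shisa9, Dzank1, Nrsn1, Doc2g and Calb2. Calb2, calretinin, a calcium-binding protein of periglomerular interneurons, had 708, 368 and 364 CPM in the ONL, against 1529, 649 and 809 CPM in the GL (log2 fold change -0.98, SE 0.24, adjusted p = 0.00601). Nrsn1, neurensin, a protein of neuronal vesicles, had 515, 651 and 382 CPM in the ONL, against 1039.8, 1066 and 1112 CPM in the GL (log2 fold change -0.99, SE 0.23, adjusted p = 0.00159). Doc2g, which mitral and tufted cells express, averaged 338 ± 210.03 CPM in the ONL and 634 ± 299 CPM in the GL (adjusted p = 0.0366). Calb2, Nrsn1, Doc2g, Dzank1 and Shisa9 each lost the call when at least 1 of the sections was left out. Against the GL the count over all genes was 45, 6 or 12 without section 1, 2 or 3.

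**Figure D5:**
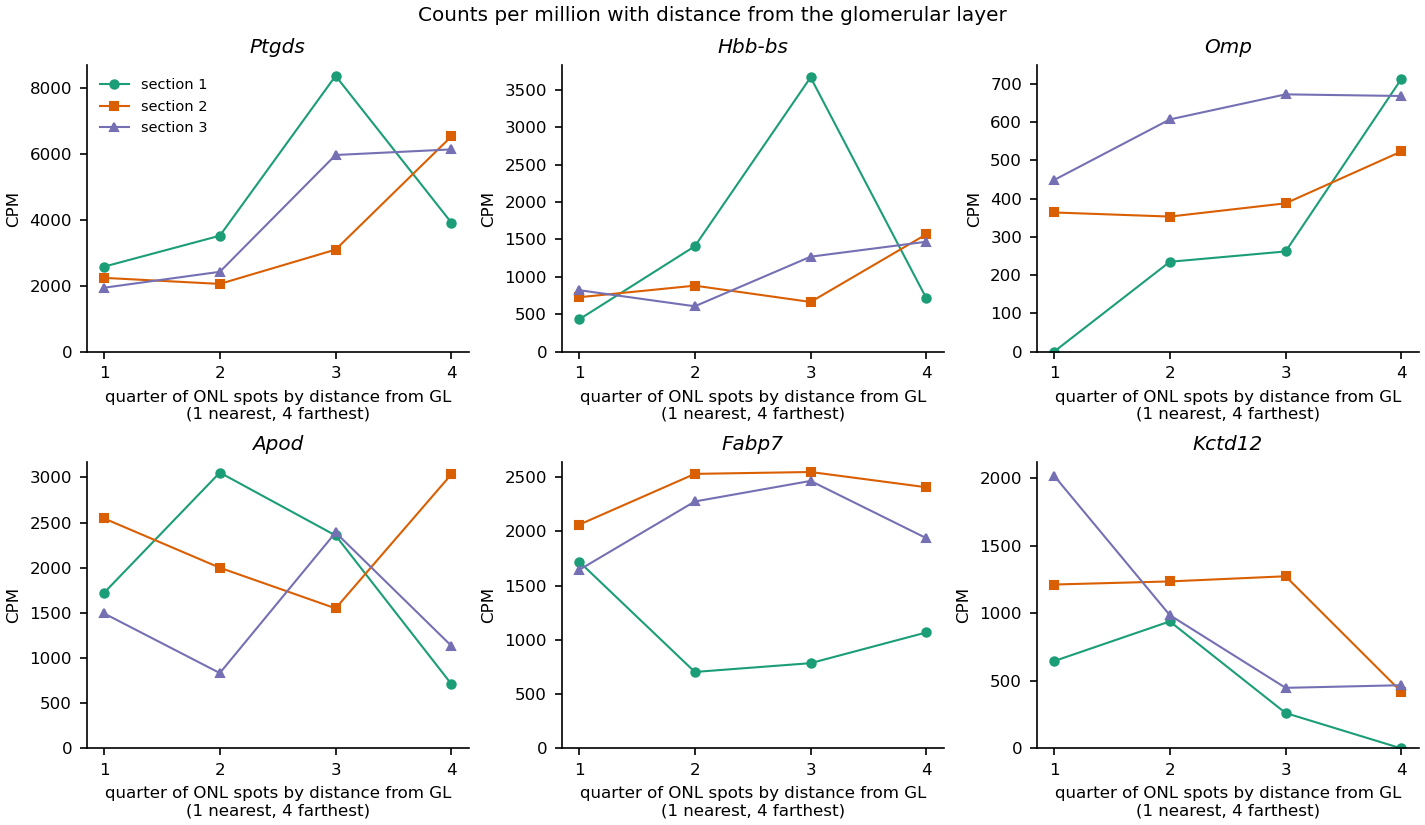
CPM of 6 genes in 4 equal groups of ONL spots by distance from the nearest GL spot (1 nearest, 4 farthest), per section. Ptgds was higher in both far groups than in both near groups in each section, Kctd12 was lowest in the farthest group or the one before it, and Apod and Fabp7 had no common order.

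Within the ONL, spots were split per section at their median distance from the nearest GL spot, which was 14.7, 18.1 and 20.3 array positions in sections 1, 2 and 3. Ptgds was the 1 of 346 tested genes (0.289%) that passed between the outer and the inner part. It had 6492, 4869 and 6066 CPM in the outer part, against 3033, 2149.9 and 2184 CPM in the inner part. The parts did not overlap, and the log2 fold change was 1.26 (SE 0.14, adjusted p = 7.46e-06). By distance, from the nearest to the farthest group of spots, Ptgds averaged 2257, 2670.1, 5819.6 and 5536 CPM.

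Kctd12 went the other way, with 151, 834 and 458 CPM in the outer part, against 786, 1224 and 1506 CPM in the inner part. Its difference had a log2 fold change of -1.08 and did not pass (adjusted p = 0.158), but passed with RLE scaling (adjusted p = 0.0337), with library sizes alone (0.0458), with each section's spots cut into 3 depth classes and the outer set against the inner (log2 fold change -1.57, adjusted p = 0.00213) and without section 2 (adjusted p = 0.0356). Hbb-bs averaged 1640.3 ± 682 CPM in the outer part and 807 ± 91.7 CPM in the inner part (log2 fold change 0.79, adjusted p = 0.326). The sensory and glial markers were not called between the parts. Omp averaged 527 ± 124 CPM in the outer part and 333 ± 209 CPM in the inner part, and Fabp7 1856 ± 835 CPM in the outer part and 1831 ± 543 CPM in the inner part. The log2 fold change was 0.46 for Omp (adjusted p = 0.884), -0.14 for S100a5 (0.988), 0.11 for Apod (0.962) and 0.08 for Fabp7 (0.969).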

How the data were processed

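Poly(A) RNA of 3 coronal sections was measured on spatial arrays, per the labels' protocols. The authors deposited raw counts, whole numbers listed by gene and spot, and a table of positions and region names. The genome build listed is mm10, per the submitters' processing notes; the aligner, counter, annotation and any use of molecular identifiers are not given in the sources used here. Gene locations are from GENCODE M21, which held 99.8% of the 19621 symbols. Counts without a gene name (0.0325%, 0.0764% and 0.0801% of sections 1, 2 and 3) and spots whose region is unknown were not tested.

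Counts were joined to regions by pixel position and summed per section and region. CPM is a count divided by the total of its sum, and means and SDs are over sections. The sections held 344260, 650393 and 505305 counts with a gene name, which limits precision most in section 1. The test was edgeR 4.0.16 (R 4.3.3), quasi-likelihood, on region plus section, scaled by TMM, with a filterByExpr minimum count of 10, which left 1996 genes (346 for parts of the ONL). The threshold was an adjusted p of 0.05 (Benjamini-Hochberg). A count of 0 is read as an upper limit of 3 counts, and intervals and limits cover counting error only.

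Sums of 1 section come from the same tissue and array. After region means were taken out, the mean correlation was 0.406 for 108 pairs of sums of the same section (lowest 0.0613) and -0.21 for pairs from different sections, so section was the block. Named genes were the 5 markers, the 12 largest increases and 8 largest decreases past the threshold that went the same way in each section with at least 30 counts on the higher side, up to 6 each way against the GL and between parts of the ONL, genes higher than in each region, and in each list the members that passed or had most counts. The markers, lists and comparisons were chosen with earlier results of these data known, so no list is independent evidence. No set test was run. Some genes that this rule takes are left out of the text.

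Alternatives were RLE scaling, library sizes alone, DESeq2 1.42.0, no filter, no block, each section left out, spots within 5 positions of another region left out, a join by spot name, no RMS, the other regions pooled, and outer against inner of 3 depth classes. The pipeline was tested on simulated data. Values and figures were made with scipy 1.17.1, matplotlib 3.10.9, numpy 2.4.6 and pandas 2.3.3 in Python 3.11.15.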

Additional observations from a re-analysis of the deposited data

Results flagged for a closer look

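Spots of unknown region entered no comparison. In section 2, 6424 such spots held 5699 counts, and 13.6% of these spots lay nearest to an ONL spot. Apod stood there at 1930.2 CPM (11 counts) and Ptgds at 2106 CPM (12 counts), both above the 526 CPM that a count of 0 allows. Whether they belong to the layer was not tested.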

How the results depend on the processing

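Of 38 named genes higher in the ONL than in the mean of the other regions, 17 kept the call in every alternative that gave a value, among them the 5 markers, Gng13, Scd1, Slc7a11, Igfbp5, Kctd12, Vtn, Tjp1, Ptn, Sash1, Mcf2l, Hbb-bs and Hba-a2. None of the 10 named lower genes, nor of the 6 higher and 6 lower than the GL, kept theirs throughout. Against the mean of the other regions, 133 genes became 212 without a filter (78 higher and 4 lower of the 1996 genes, the others below the filter), and 53 to 188 with a section left out. Against the GL, 38 became 18 with DESeq2, 15 without a filter and 6 to 45 with a section left out. The 14 genes higher than each region became 4 with library sizes alone, 7 with DESeq2, 6 without a filter, 7 with border spots left out, 26 without the RMS and 3 to 14 with a section left out. Between parts of the ONL 1 gene became 2 (Ptgds and Kctd12) with RLE scaling, library sizes alone and 3 depth classes, and 1 to 2 with a section left out. The gene lists' 34 calls became 19 to 39 with a section left out, with 19 without section 2. Without the section block, the counts were 29 against the mean of the other regions, 0 against the GL, 0 higher than each region, 0 between the parts (Ptgds, log2 fold change 1.21, adjusted p = 0.999) and 14 for the gene lists. With the other regions pooled, the log2 fold changes of Sparcl1 (-0.0894) and Doc2g (-0.90) turned negative. The causes were not tested. Leaving out border spots moved the median log2 of all tested genes to 0.64, with 171 genes higher and 0 lower. Depth limits section 1 most.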

Other observations

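Transcription factor genes were among those higher in the ONL. Nfia, a nuclear factor I gene that promotes glial fate, averaged 276 ± 137 CPM in the ONL and 116 ± 52.1 CPM in the mean of the other regions (SD, n = 3 each), with a log2 fold change of 1.55 (SE 0.33, adjusted p = 9.4e-05). In the fit without a filter on low counts, Foxd3, a factor of the neural crest lineage, had 1, 8 and 8 counts in the ONL of sections 1, 2 and 3, 17 in all, against 7 in the other regions together. Nr2f2 (COUP-TFII) averaged 292 ± 155 CPM in the ONL and 42.6 ± 16.03 CPM elsewhere, and Id3, an inhibitor of basic helix-loop-helix factors, 247 ± 177 CPM in the ONL and 22.8 ± 4.61 CPM elsewhere. Aldh1a1, a retinaldehyde dehydrogenase, had 23 counts in the ONL and 53 elsewhere. Syne2, a nuclear envelope protein, had 49 counts in the ONL and 68 elsewhere. The single gene below the filter that was called lower, Egln3, an oxygen-sensing prolyl hydroxylase, had 0 of 141103 ONL counts, which allows up to 21.3 CPM, against 66 counts and a mean of 58.3 CPM elsewhere. These genes were chosen after their values were seen.

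Unprocessed pseudogenes carried part of the layer's counts. The 9 that were tested held 2.91%, 6.52% and 6.36% of ONL counts in sections 1, 2 and 3, against 1.70%, 5.03% and 5.25% of the counts of the other regions. Gm10925, Gm29216, Gm28661 and Gm28437, with Lars2, were the 5 symbols with the highest ONL means. All were among the genes called higher in the ONL than in the mean of the other regions. Their log2 fold changes lay between 0.65 and 0.99 (edgeR quasi-likelihood, adjusted p from 2.94e-08 to 0.00017). How reads shared with other loci were assigned was not stated in the labels, and its part in these calls was not tested.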
